A study of Mus musculus with 6 samples.

Results

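The MYC, MAX and MXD network was examined in B16-F3, a mouse melanoma line sorted into a high-pigmented (HPC) and a low-pigmented (LPC) population, as 10 genes picked by name from the 22740 genes of the deposited count table: Myc, Mycn, Max, Mxd1, Mxd3, Mxd4, Mxi1, Mnt, Mga and Mlx. All 10 were present. The HPC group holds 3 libraries and the LPC group 3, all from 1 cell line grown in DMEM with fetal bovine serum, penicillin and streptomycin, and the labels name no genotype or agent that differs between the groups. Cells were purified by fluorescence-activated cell sorting, and nothing says whether the replicates were separate cultures or sorts. Each library holds the mRNA of a sorted bulk population, so fewer cells with a transcript and less transcript per cell cannot be told apart. Libraries were read from transcript 3′ ends and held between 14695822 and 22186743 counts.

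MYC proteins are transcription factors that bind DNA only as pairs with MAX and activate genes for growth, ribosome production and metabolism. MAX also pairs with the MXD proteins (MXD1, MXI1, MXD3 and MXD4) and with MNT and MGA, which occupy the same DNA motif, the E-box CACGTG, and repress, so that the balance of partners sets the output. MLX is a MAX-like partner that joins the glucose-sensing factors MondoA (Mlxip) and ChREBP (Mlxipl), and can also pair with MXD1, MXD4 and MNT. In melanoma, high MYC activity is known for driving growth and for overriding senescence, and MITF, the main melanocyte regulator, binds related E-box motifs.

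The motif itself lies near the starts of several of these genes. RefSeq promoter windows on GRCm38.p6, which run from 250 bases before to 50 bases after a start site, were matched by symbol for 9 of the 10 genes, all but Myc. CACGTG, which reads the same on both strands, occurred in the windows of 4 of these 9, namely Max, Mlx, Mnt and Mxd4, against 8.09% of all 27025 genes of the RefSeq table and 12.0% of the 8929 tested genes that have a window. The 4 stretches are shown because they place the network's own motif at the network's own genes, and Cdk4, a cyclin-dependent kinase gene of the MYC-activated list, is shown because its window held 4 copies. Each stretch has 280 bases, 250 before and 30 from the start site, written 5′ to 3′ on the gene's strand with CACGTG in capitals. Max is chr12:76962219-76962498 on the minus strand, Mlx chr11:101087040-101087319 on the plus strand, Mnt chr11:74830674-74830953 on the plus strand, Mxd4 chr5:34187681-34187960 on the minus strand and Cdk4 chr10:127063285-127063564 on the plus strand. The motif is a match of letters only, and no binding was measured.
Max: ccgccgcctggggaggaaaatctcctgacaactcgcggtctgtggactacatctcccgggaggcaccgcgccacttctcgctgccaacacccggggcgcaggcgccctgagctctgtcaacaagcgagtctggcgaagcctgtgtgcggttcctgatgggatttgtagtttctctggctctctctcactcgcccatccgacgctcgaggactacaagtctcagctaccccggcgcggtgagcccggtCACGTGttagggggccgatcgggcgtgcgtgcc
Mlx: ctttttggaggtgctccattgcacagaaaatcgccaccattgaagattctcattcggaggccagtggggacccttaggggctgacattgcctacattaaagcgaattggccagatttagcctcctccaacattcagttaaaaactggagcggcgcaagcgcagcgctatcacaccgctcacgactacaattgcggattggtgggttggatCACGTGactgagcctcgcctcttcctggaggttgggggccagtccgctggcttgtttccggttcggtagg
Mnt: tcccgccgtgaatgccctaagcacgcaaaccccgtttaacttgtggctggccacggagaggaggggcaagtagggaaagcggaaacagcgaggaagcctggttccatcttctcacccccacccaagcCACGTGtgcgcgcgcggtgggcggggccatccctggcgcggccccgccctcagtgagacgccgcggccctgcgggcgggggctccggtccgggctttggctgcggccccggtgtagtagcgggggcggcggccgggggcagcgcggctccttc
Mxd4: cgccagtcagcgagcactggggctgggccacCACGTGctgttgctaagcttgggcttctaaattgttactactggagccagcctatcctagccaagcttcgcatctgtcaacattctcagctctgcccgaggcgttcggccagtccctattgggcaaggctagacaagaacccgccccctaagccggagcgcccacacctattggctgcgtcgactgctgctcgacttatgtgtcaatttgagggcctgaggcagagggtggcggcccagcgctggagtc
Cdk4: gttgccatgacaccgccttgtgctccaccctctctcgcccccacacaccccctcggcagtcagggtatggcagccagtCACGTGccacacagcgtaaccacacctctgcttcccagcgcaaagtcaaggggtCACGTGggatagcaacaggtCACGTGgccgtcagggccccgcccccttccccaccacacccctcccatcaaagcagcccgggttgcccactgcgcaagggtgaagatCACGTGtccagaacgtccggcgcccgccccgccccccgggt

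Myc was the network gene that differed between the populations. It stood at 34.6, 36.2 and 28.5 CPM (CPM stands for counts per 1e6 counts, here with TMM composition factors) in HPC replicates 1, 2 and 3, against 83.0, 68.9 and 71.9 CPM in LPC replicates 1, 2 and 3. The groups did not overlap, as in 14.3% of all tested genes (7.18% with HPC below and 7.16% with HPC above): the highest HPC library, replicate 2, lay well below the lowest LPC library, also replicate 2. The mean was 33.1 ± 4.06 CPM in the HPC libraries, against 74.6 ± 7.41 CPM in the LPC libraries (SD, n = 3 each), a 2.25-fold lower level in HPC with a 95% interval of 1.82- to 2.79-fold (log2 fold change -1.17, SE 0.13, adjusted p = 0.046 by edgeR's quasi-likelihood test). Behind these values were 616, 803 and 561 reads in HPC and 1230, 1305 and 1074 in LPC, so counting error was 2.77% to 4.22% per library. HPC was lower in all 3 pairs of equally numbered libraries, with log2 differences of -1.26, -0.93 and -1.33, as were 21.3% of all tested genes.

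By p, Myc was number 5 among 11921 tested genes, of which 5 passed, 0.0419%, all lower in HPC. The call lies close to the threshold. The log2 fold change stayed between -1.24 and -1.07 when any 1 of the 6 libraries was left out, but the adjusted p of the edgeR test then ran from 0.035 to 0.23, and Myc no longer passed without HPC replicate 1, 2 or 3 or without LPC replicate 2. In each fit where Myc did not pass, 0 genes of the whole table were called. Without LPC replicate 1 and without LPC replicate 3, 17 and 43 genes were called, Myc among them. Leaving out a library leaves 3 residual degrees of freedom. Myc (ENSMUSG00000022346) lies at chr15:61985391-61990374 on the plus strand of GRCm38, with no overlapping gene in GENCODE M21.

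**Figure D1:**
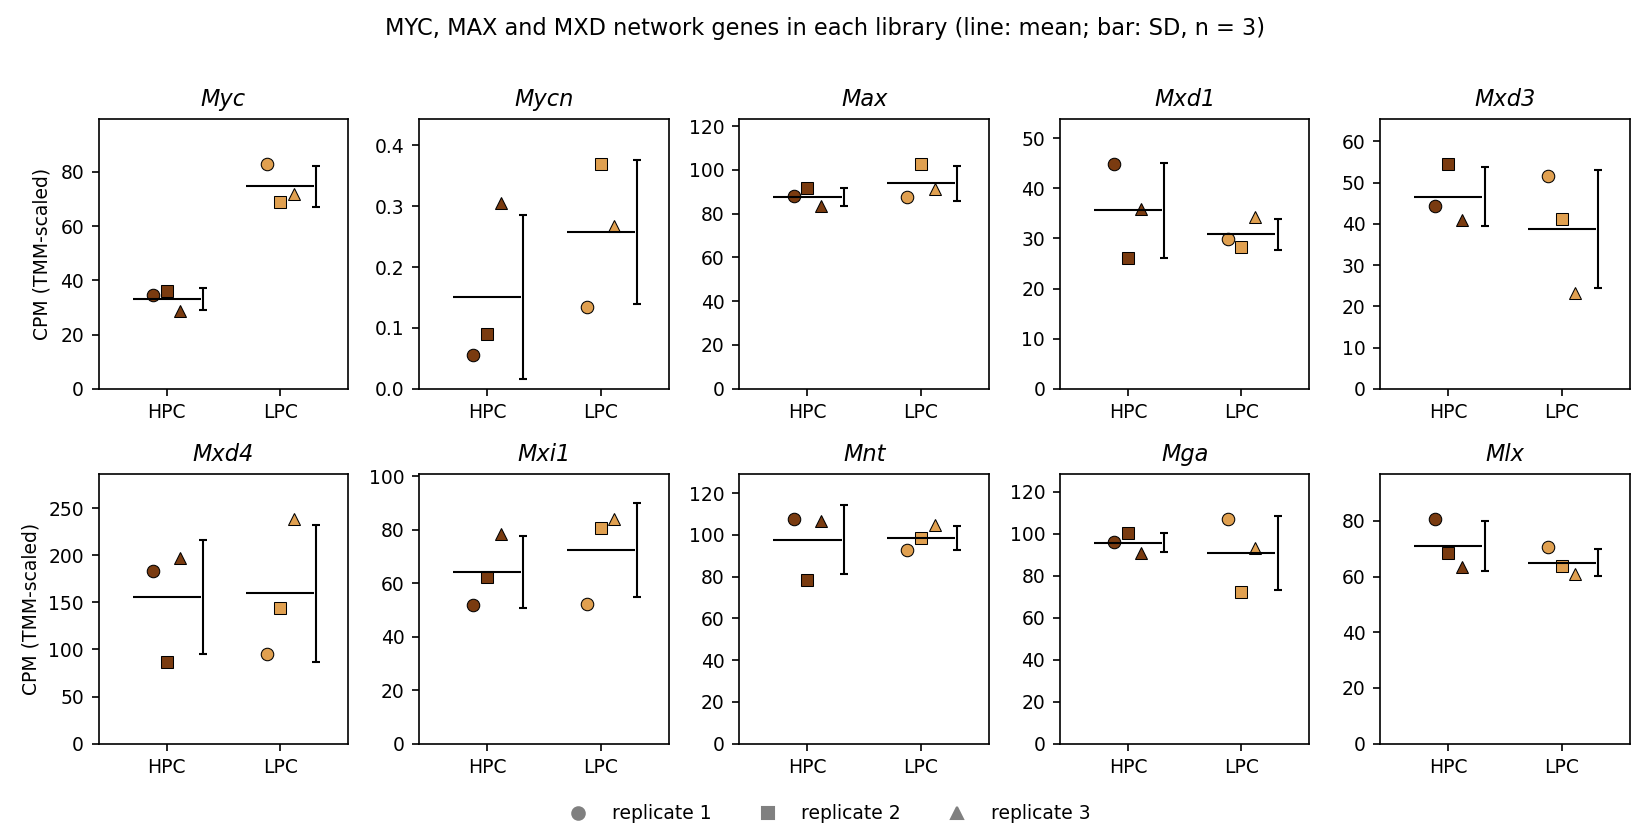
CPM of each network gene in the 3 HPC and 3 LPC libraries, with 1 marker per replicate number, a line at the group mean and a bar of 1 SD. Only for Myc do the groups separate, at 28.5 to 36.2 CPM in HPC against 68.9 to 83.0 CPM in LPC.

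Mycn, the paralogue of Myc best known from neuroblastoma and embryonic tissue, was close to undetected. It had 1, 2 and 6 reads in HPC and 2, 7 and 4 reads in LPC. The sums, 9 reads in HPC with an exact 95% Poisson interval of 4.12 to 17.1 and 13 reads in LPC with an interval of 6.92 to 22.2, overlap, and the intervals cover counting error only. Mycn was the 1 member that failed the filter on low counts, and with no filter its log2 fold change was -0.76 with an SE of 0.80 (edgeR adjusted p = 0.82), so no difference was detectable at this depth.

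Max, the obligate partner, showed no detectable difference. It had 88.2, 91.6 and 83.5 CPM in the HPC libraries, against 87.4, 103 and 91.3 CPM in the LPC libraries. The log2 fold change was -0.10 with a 95% interval of -0.35 to 0.15 (edgeR adjusted p = 0.85), which allows a difference of at most 1.27-fold lower in HPC.

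None of the MXD repressors was called, and their libraries overlapped between the populations. Mxd4, the most abundant of them, known from mouse tissues as a factor of cells that have left the cell cycle, had 183, 86.4 and 197 CPM in the HPC libraries, against 95.4, 144 and 239 CPM in the LPC libraries. The highest library exceeded the lowest 2.28-fold within HPC and 2.50-fold within LPC, and the group means were 156 ± 60.3 CPM in HPC and 159 ± 72.9 in LPC. The log2 fold change of -0.04 therefore has a wide interval, -0.90 to 0.83, which reaches down to a 1.87-fold lower level in HPC.

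Mxd3, the MXD gene that in mouse cells is expressed in S phase, had 44.2, 54.6 and 40.8 CPM in the HPC libraries, against 51.7, 41.2 and 23.3 CPM in the LPC libraries. LPC replicate 3 was the lowest of all libraries, the LPC values spread 2.22-fold, and the groups overlapped. The log2 fold change was 0.27 with an interval of -0.34 to 0.87 (edgeR adjusted p = 0.83). The 3′ end of Mxd3 lies within Prelid1, a gene of the opposite strand at 221 ± 6.79 CPM in the HPC libraries, against 268 ± 33.3 CPM in the LPC libraries, and whether counting used strand is not given in the sources used here, so the level of Mxd3 is uncertain to that extent.

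Mxd1, an MXD repressor induced on differentiation in myeloid and epidermal cells, had 44.9, 26.0 and 35.9 CPM in the HPC libraries, against 29.9, 28.4 and 34.2 CPM in the LPC libraries. HPC replicate 1 held both the highest Mxd1 level and the highest mitochondrial share of counts, 3.21% against 2.07% to 2.56% in the other libraries, and the part of that share in the result was not tested. Mxi1, a repressor related to MXD1 that is induced by hypoxia in several cell types, had 51.8, 62.5 and 78.4 CPM in the HPC libraries, against 52.2, 80.9 and 84.2 CPM in the LPC libraries. Both genes overlapped between the groups, with log2 fold changes of 0.21 (interval -0.25 to 0.67) and -0.17 (interval -0.66 to 0.31) and edgeR adjusted p of 0.82 and 0.87.

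Mnt, the broadly expressed antagonist of MYC, had 108, 78.6 and 107 CPM in the HPC libraries, against 92.9, 98.3 and 105 CPM in the LPC libraries. Its mean level was 97.7 ± 16.6 CPM in HPC and 98.6 ± 5.85 in LPC (log2 fold change -0.01, interval -0.34 to 0.31). Mga, which joins MAX to a Polycomb complex, had 95.9, 100.3 and 91.0 CPM in the HPC libraries, against 107, 72.2 and 93.3 CPM in the LPC libraries, with a log2 fold change of 0.08 and an interval of -0.27 to 0.42. LPC replicate 2 stood apart as the lowest Mga library. Mlx had 80.8, 68.3 and 63.5 CPM in the HPC libraries, against 70.4, 63.8 and 60.7 CPM in the LPC libraries, slightly higher in HPC in each pair of equally numbered libraries, but its interval, -0.16 to 0.41, includes 0 (edgeR adjusted p = 0.83). The 3′ end of Mlx is shared with Psmc3ip on the opposite strand, which had 19.8 ± 3.49 CPM in the HPC libraries, against 19.7 ± 4.56 CPM in the LPC libraries.

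**Figure D2:**
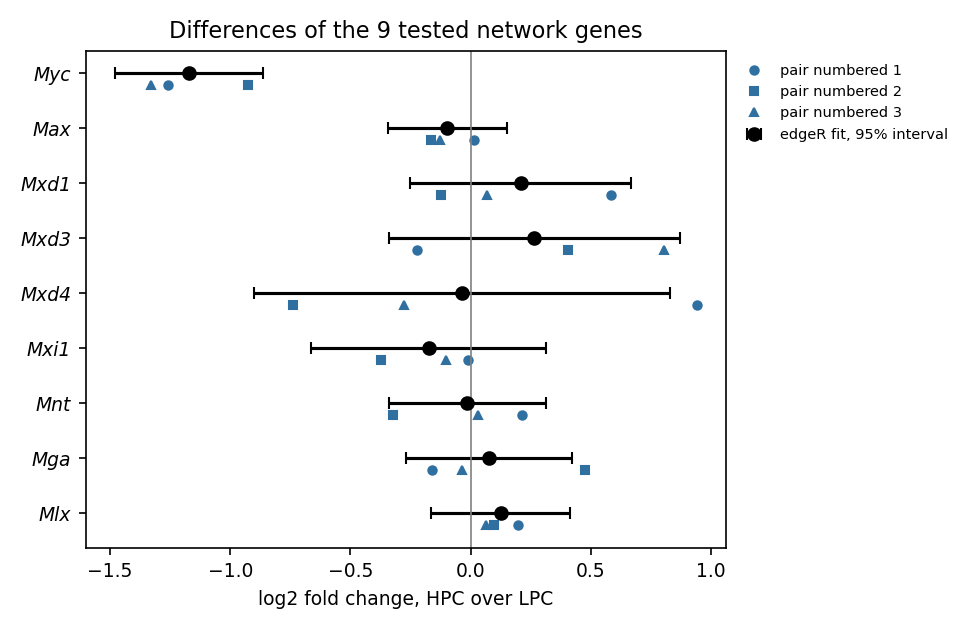
Log2 fold change, HPC over LPC, of the 9 tested network genes with 95% intervals from the edgeR fit, and below each the difference in the 3 pairs of equally numbered libraries. Myc lies at -1.17 (interval -1.48 to -0.86), and the intervals of the other 8 include 0.

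Of the 9 tested members, then, 1 was lower in HPC and none higher with edgeR, and the same count of 1 was reached with the replicate number as a block (background 2.52% of all genes, 1.43% higher and 1.1% lower in HPC), with DESeq2 (1.88%, 1.02% higher and 0.856% lower), with DESeq2 and the block (4.19%, 2.64% higher and 1.55% lower) and with limma-voom (0.0419%). For the other 8 the smallest adjusted p was 0.82 with edgeR without the block, 0.38 with it, 0.91 with DESeq2 and 0.75 with limma-voom, and at an unadjusted p under 0.05 edgeR called 0 of the 8 without the block, against 9.37% of all genes, and 0 with it, against 18.8%. Their log2 fold changes ran from -0.17 for Mxi1 to 0.27 for Mxd3, with a median absolute value of 0.11 against 0.14 over all tested genes.

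The variation of each gene over the 6 libraries can be divided between the 2 populations, the 3 replicate numbers and the rest, as shares of the sum of squares of log2 CPM. For Myc, 95.1% lay between HPC and LPC, 2.72% between replicate numbers and 2.15% in the rest, and only 36 of 11921 tested genes (0.302%) had as large a share between the populations. For the other 8 members the median share between populations was 9.79%, below the median of 16.5% over all tested genes. Their median between replicate numbers was 55.7%, near the 52.4% over all tested genes. Mxi1 and Mlx followed the replicate number most closely, at 85.3% and 75.7%. Mga had the largest remainder, 59.6%.

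**Figure D3:**
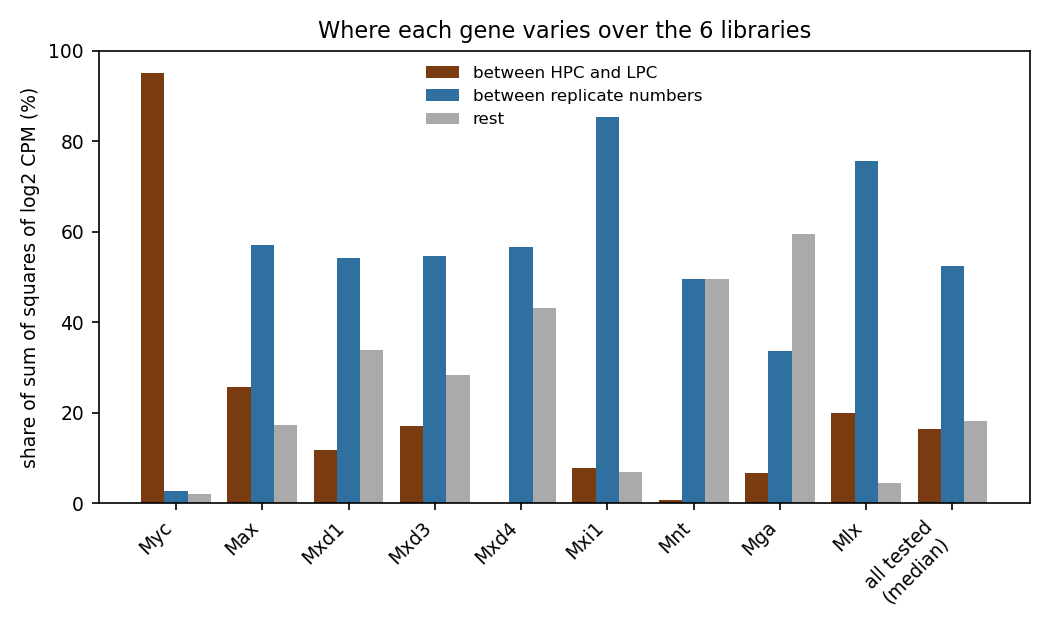
Shares of the sum of squares of log2 CPM over the 6 libraries that lie between HPC and LPC, between replicate numbers and in the rest, for each tested network gene and as medians over all tested genes. Myc has 95.1% between HPC and LPC, against 25.7% or less for the other 8.

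Since a 3′ library gives reads from the end of each transcript only, CPM values were not divided by length, and ratios between genes also depend on how well each 3′ end is annotated. The ratio of Myc to Max was 0.392, 0.395 and 0.341 in HPC and 0.949, 0.670 and 0.788 in LPC. The ratio of Myc to the summed MXD repressors (Mxd1, Mxd3, Mxd4 and Mxi1) was 0.107, 0.158 and 0.081 in HPC and 0.362, 0.234 and 0.189 in LPC. Neither ratio overlapped between the groups, but Myc is the numerator of both, so they carry its own separation and add no separate result. The MXD sum itself had a mean of 302 ± 64.2 CPM in the HPC libraries, against 301 ± 75.9 CPM in the LPC libraries. Myc and Mycn together made up 5.65% ± 1.31 of the counts of the network genes other than Max in HPC and 12.0% ± 2.09 in LPC (SD, n = 3 each). Mxd3 and Mxd4, by contrast, varied against each other within both populations, at a ratio of 0.241, 0.632 and 0.207 in HPC and 0.542, 0.286 and 0.0976 in LPC. These values are descriptions with no test.

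**Figure D4:**
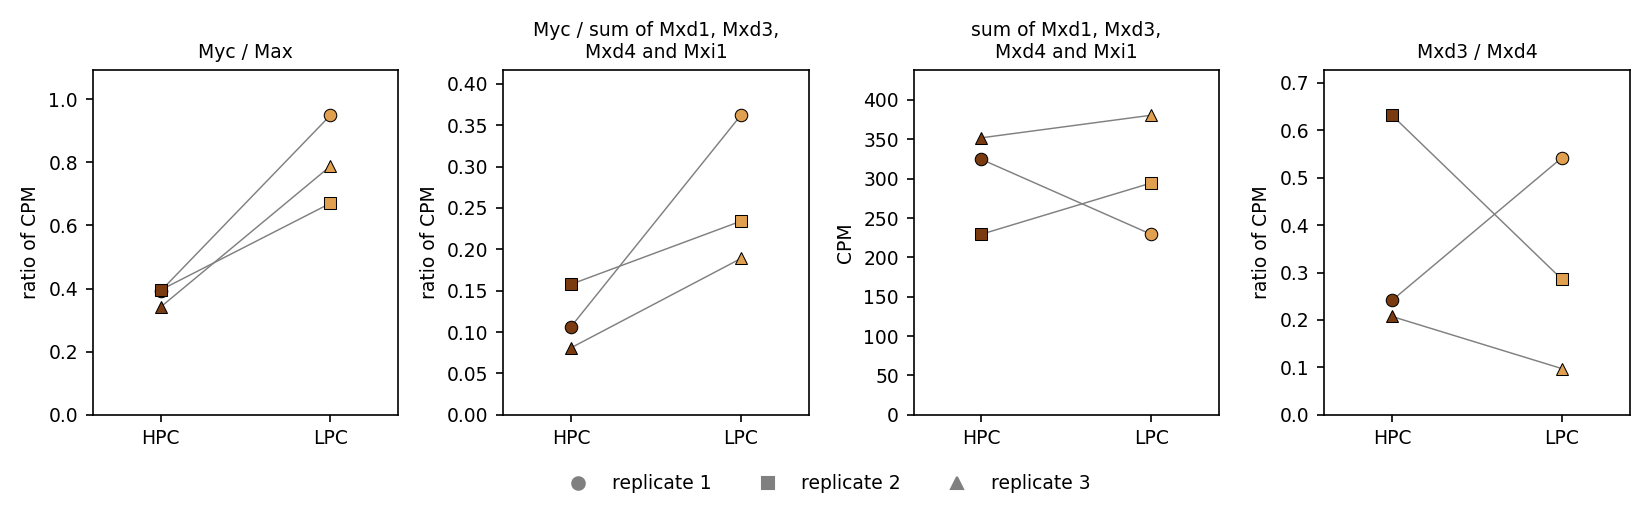
Ratios of Myc to Max, of Myc to the summed MXD genes and of Mxd3 to Mxd4, and the MXD sum in CPM, in each library, with lines joining equally numbered libraries. All 3 HPC libraries lie below all 3 LPC libraries in both Myc ratios, while the MXD sum and the ratio of Mxd3 to Mxd4 overlap.

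The genes whose pattern was most like that of Myc were sought among 10206 tested genes with a mean of at least 5 CPM, by the root mean square difference of log2 CPM centred on each gene's mean over the 6 libraries, where a flat gene would differ from Myc by 0.60. The nearest were Slc44a3 (difference 0.081), a member of the choline transporter-like family, Pde3a (0.097), a cyclic nucleotide phosphodiesterase, Rgs7bp (0.15), which binds regulators of G protein signalling, Tg (0.19), thyroglobulin, and Art3 (0.20), an ADP-ribosyltransferase family gene. Slc44a3 had 31.9, 32.2 and 25.8 CPM in the HPC libraries, against 65.4, 61.1 and 59.1 CPM in the LPC libraries. Among the genes closest to the mirror image of Myc were Arhgef5 (0.21), a guanine nucleotide exchange factor, Tec (0.21), a tyrosine kinase, Psrc1 (0.21), a spindle and microtubule gene, and Schip1 (0.25). Psrc1 had 178, 129 and 149 CPM in the HPC libraries, against 77.7, 74.3 and 70.1 CPM in the LPC libraries. These genes were chosen for their pattern over the same libraries, so their differences carry no test here.

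Mxd3 was looked at in the same way after its values were seen. Its 5 nearest genes were Birc5 (difference 0.055), which encodes survivin, Tk1 (0.065), thymidine kinase, Diap3 (0.068), a formin, Ndc1 (0.069), a nuclear pore gene, and Cenpn (0.070), a centromere gene, against 0.40 for a flat gene. Birc5 had 131, 164 and 121 CPM in the HPC libraries, against 140, 117 and 70.2 CPM in the LPC libraries, with its lowest value, like that of Mxd3, in LPC replicate 3. The proliferation marker Mki67 was lowest there too, at 698, 874 and 659 CPM in the HPC libraries, against 854, 567 and 389 CPM in the LPC libraries. Birc5 and Mki67 did not pass (edgeR adjusted p = 0.73 and 0.80).

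Around the network, 10 lists of genes were described by their counts and medians, beside a median log2 fold change of -0.01 over all tested genes, of which 5746 were positive and 6175 negative. In its fit without replicate numbers, edgeR called no gene of these lists. A blocked edgeR fit, with the replicate number as a term, called 8 of them, against 2.52% of all genes. All 8 were lost without the pair of libraries numbered 2 (adjusted p 0.16 to 0.43), where 0 genes of the whole table were called. Without the pair numbered 3, 5 were lost, with 196 genes called in the whole table. Without the pair numbered 1 all 8 passed, with 2947 genes called in the whole table. These fits have 1 residual degree of freedom. Among these 8 genes, 6 also passed with DESeq2 without the block and none with limma-voom. Beside the counts given for each list stand the shares over all tested genes. At an unadjusted p under 0.05 in edgeR these were 9.37% unblocked and 18.8% blocked. Calls at the adjusted threshold made up 1.88% with DESeq2, 4.19% with DESeq2 and the block, and 0.0419% with limma-voom or unblocked edgeR.

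The other genes of the extended network, with 6 tested of 7, included no call with or without the block (edgeR, 0 unblocked and 3 blocked at an unadjusted p under 0.05, and 0 called by DESeq2 or limma-voom). Mlxip, the MondoA gene, was at 122 ± 15.99 CPM in the HPC libraries, against 106 ± 12.7 CPM in the LPC libraries, and Usf1, another E-box factor, at 29.3 ± 2.09 CPM in HPC and 36.1 ± 6.29 in LPC, with log2 fold changes of 0.19 and -0.30. The list median was -0.18, and -0.10 without LPC replicate 3.

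The corepressors that MXD and MNT recruit, chiefly SIN3 and histone deacetylases, included no call. Of 14 tested genes 7 were positive and 7 negative, with a median log2 fold change of 0.003, and no edgeR, DESeq2 or limma-voom call (edgeR, 0 at an unadjusted p under 0.05 unblocked and 1 blocked). Sap30, a SIN3 complex subunit, was at 35.1 ± 3.90 CPM in the HPC libraries, against 28.9 ± 3.15 CPM in the LPC libraries, and Hdac1, a deacetylase, at 27.1 ± 3.32 CPM in HPC and 30.3 ± 1.54 in LPC. The coactivators and partners of MYC, with 18 tested, had a median of -0.01 and no call by any of these tools (edgeR, 0 at an unadjusted p under 0.05 unblocked and 2 blocked). With 1 library left out, the median ran from -0.028 to 0.049 for the corepressors and from -0.10 to 0.049 for the coactivators. Kat5, the TIP60 acetyltransferase, was at 25.9 ± 3.09 CPM in the HPC libraries, against 32.1 ± 4.90 CPM in the LPC libraries, and Crebbp, another acetyltransferase, at 48.0 ± 6.05 CPM in HPC and 42.4 ± 7.10 in LPC.

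Genes that set the stability of the MYC protein had a median of 0.06 over 20 tested members, with no edgeR call (1 at an unadjusted p under 0.05 unblocked and 4 blocked). Aurka, a mitotic kinase that also protects MYC family proteins from degradation, was at 98.3 ± 15.4 CPM in the HPC libraries, against 66.0 ± 22.9 CPM in the LPC libraries, without overlap, as in 14.3% of all tested genes (edgeR adjusted p = 0.54, and 0.13 with the block). It passed with DESeq2 and the block (adjusted p = 0.017). Set, an inhibitor of the phosphatase PP2A, was at 76.2 ± 9.63 CPM in HPC and 98.9 ± 18.03 in LPC (edgeR adjusted p = 0.53).

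Inputs to Myc transcription had negative values in 15 of 18 tested genes, with a median of -0.11 (-0.065 without LPC replicate 1). edgeR without the block called none. At an unadjusted p under 0.05 edgeR had 2 unblocked and 7 blocked, against 9.37% and 18.8% of all genes. Notch1, whose signalling directly activates Myc in T cells and other settings, had 43.4, 26.2 and 36.2 CPM in the HPC libraries, against 53.6, 53.7 and 68.5 CPM in the LPC libraries. It fell 1.69-fold in HPC with the replicate block (adjusted p = 0.047 by edgeR, and 0.27 by edgeR without it) and also passed with DESeq2 without the block (adjusted p = 0.041). Foxm1, a cell cycle transcription factor, was at 271 ± 33.6 CPM in the HPC libraries, against 203 ± 77.3 CPM in the LPC libraries, and did not pass (edgeR adjusted p = 0.69).

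Among genes activated by MYC, 1 was called by the blocked edgeR fit and, without the block, by DESeq2, and 3 were called by DESeq2 with the block. The shares of all genes were 2.52%, 1.88% and 4.19% in these fits. Of 46 tested, 36 were negative in log2 fold change and the median was -0.11, but the pair medians were -0.32, -0.0062 and 0.019 for the pairs numbered 1, 2 and 3, and the list median was -0.28 without LPC replicate 3, -0.20 without HPC replicate 2, -0.011 without HPC replicate 3, -0.070 without LPC replicate 2 and 0.039 without LPC replicate 1. edgeR called none unblocked (at an unadjusted p under 0.05, 2 unblocked and 8 blocked). In the blocked fit the one call was Hk2, hexokinase 2 of glycolysis, which was higher in HPC, at 263, 218 and 186 CPM in HPC against 150.05, 153 and 146 CPM in LPC (1.47-fold, adjusted p = 0.049 by edgeR, 0.24 by edgeR without the block and 0.023 by DESeq2). Npm1, the nucleolar protein nucleophosmin, was at 436 ± 84.2 CPM in the HPC libraries, against 570 ± 82.4 CPM in the LPC libraries (edgeR adjusted p = 0.55, and 0.080 with the block), and its many processed pseudogenes make its counts uncertain. It passed with DESeq2 and the block (adjusted p = 0.023), as did Ccnd2, cyclin D2, named after its values were seen, at 1204 ± 347 CPM in HPC and 875 ± 124 in LPC (adjusted p = 0.014, and 0.55 with edgeR without the block). CACGTG occurred in the promoter windows of 11 of the 38 list genes with a window, 28.9%, among them Cdk4 with the 4 copies shown above.

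Genes repressed by MYC moved both ways. Of 19 tested, 7 were positive and 12 negative. Their median of -0.07 changed with each library left out, between -0.15 without HPC replicate 3 and 0.017 without LPC replicate 3. edgeR called none unblocked and 3 blocked (against 2.52% of all genes). At an unadjusted p under 0.05 it had 4 unblocked and 7 blocked, against 9.37% and 18.8% of all genes. Cdkn1a, which encodes the cell cycle inhibitor p21 and is also a p53 target, had 586, 184 and 332 CPM in the HPC libraries, against 121, 104 and 161 CPM in the LPC libraries, without overlap, as in 14.3% of all tested genes (7.16% with HPC above). It rose 2.59-fold in HPC with the replicate block (adjusted p = 0.042 by edgeR, 0.24 by edgeR without it and 0.0019 by DESeq2). Its highest library, HPC replicate 1, was again that with the 3.21% mitochondrial share, whose part in the result was not tested, and without the pair numbered 1 its blocked log2 fold change was 0.94, against 1.37 with all pairs. Pdgfrb, a growth factor receptor, and Gadd45b, a stress response gene, fell 3.00- and 2.25-fold in HPC with the replicate block (adjusted p = 0.0086 and 0.0495 by edgeR, and 0.18 and 0.25 without it). DESeq2 without the block also called both lower (adjusted p = 0.0011 and 0.035). Neither overlapped between the groups, as in 7.18% of all tested genes with HPC below. Over the list, DESeq2 without the block called 2 genes higher and 2 lower in HPC, against 1.02% and 0.856% of all genes. Btg2, an antiproliferative gene, was at 9.27 ± 6.95 CPM in the HPC libraries, against 2.95 ± 0.499 CPM in the LPC libraries (edgeR adjusted p = 0.33, and 0.058 with the block). DESeq2 called it higher in HPC both unblocked (adjusted p = 0.040) and blocked (0.0015).

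On the MLX side, the targets of MondoA and ChREBP had a median of -0.18 over 11 tested genes, but -0.015 without LPC replicate 3, -0.042 without HPC replicate 1 and -0.073 without HPC replicate 2. Of these genes 2 fell in HPC with the block while edgeR called none without it and DESeq2 without the block none. At an unadjusted p under 0.05 edgeR had 2 unblocked and 5 blocked, against 9.37% and 18.8% of all genes. DESeq2 with the block called 1 higher and 3 lower in HPC, against 2.64% and 1.55% of all genes. Txnip, the glucose-responsive inhibitor of glucose uptake and the best known MondoA target, had 151, 272 and 362 CPM in the HPC libraries, against 194, 390 and 513 CPM in the LPC libraries. The groups overlap, but each HPC library lay below the LPC library of its own number, as in 21.3% of all tested genes. Its level in HPC was 1.38-fold lower with the replicate block (adjusted p = 0.046 by edgeR, and 0.77 without it). Klf10, a zinc finger repressor, showed the same layout, at 18.5, 34.8 and 40.1 CPM in the HPC libraries, against 30.6, 52.1 and 55.8 CPM in the LPC libraries (1.51-fold lower, adjusted p by edgeR 0.033 blocked and 0.65 unblocked). Khk, ketohexokinase, was at 4.71 ± 0.413 CPM in the HPC libraries, against 9.81 ± 3.53 CPM in the LPC libraries, and Acaca, acetyl-CoA carboxylase, at 78.5 ± 9.95 CPM in HPC and 57.0 ± 2.75 in LPC, and neither passed with edgeR (adjusted p = 0.056 and 0.095 with the block), while both passed with DESeq2 and the block (adjusted p = 0.013 and 0.049).

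On the MGA side, the list held subunits of PRC1.6, the Polycomb complex that MGA anchors, and of a related Polycomb complex. Its 16 tested genes had a median of -0.06, which ran from -0.10 to -0.023 with 1 library left out. L3mbtl2, a chromatin reader of PRC1.6, was the 1 called gene, with 272, 229 and 240.2 CPM in the HPC libraries, against 168, 137 and 135 CPM in the LPC libraries, without overlap, as in 14.3% of all tested genes (7.16% with HPC above). It rose 1.69-fold in HPC with the replicate block (adjusted p = 0.013 by edgeR) and with DESeq2 without the block (adjusted p = 0.00010), but did not pass with edgeR without the block (adjusted p = 0.13). At an unadjusted p under 0.05 edgeR had 2 genes of the list unblocked and 2 blocked. Pcgf1, the subunit of a related Polycomb complex, was at 16.5 ± 1.69 CPM in the HPC libraries, against 19.4 ± 1.75 CPM in the LPC libraries. Of 21 germline genes known as PRC1.6 targets in mouse embryonic stem cells, only 4 passed the filter on low counts, and none of these 4 was called by edgeR, DESeq2 or limma-voom (edgeR, 1 at an unadjusted p under 0.05 unblocked and 1 blocked). Their median was 0.25, and 0.12 without HPC replicate 3 and 0.39 without LPC replicate 3. Zcwpw1, a meiotic chromatin reader, was at 16.5 ± 4.82 CPM in the HPC libraries, against 12.8 ± 1.16 CPM in the LPC libraries.

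**Figure D5:**
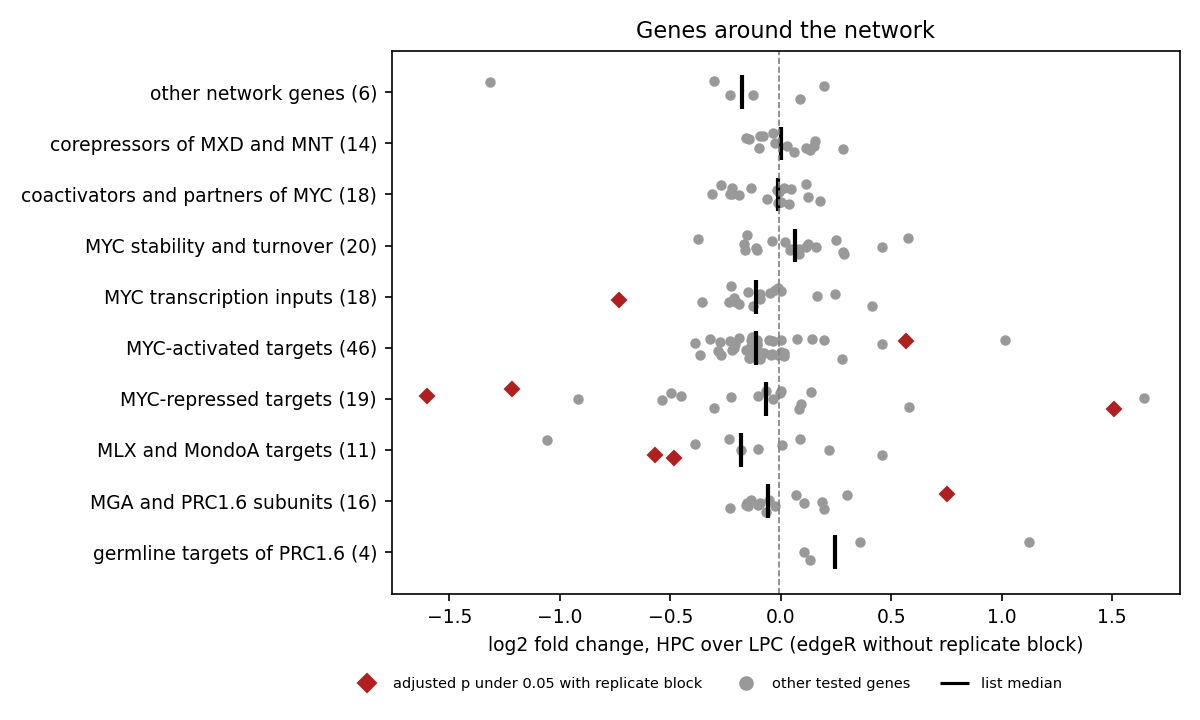
Log2 fold changes, HPC over LPC, of the tested genes of 10 lists around the network, 1 point per gene with the number of tested genes in brackets, list medians as black bars and the median of all tested genes as a dashed line. Red diamonds mark genes with an adjusted p under 0.05 in the edgeR fit with the replicate block, and the list medians lie between -0.18 and 0.25.

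All 10 melanocyte markers were detected in every library. Between the populations 7 were positive and 3 negative, with a median log2 fold change of 0.15. edgeR called 0 unblocked and 2 blocked (against 2.52% of all genes). At an unadjusted p under 0.05 it had 4 unblocked and 4 blocked, against 9.37% and 18.8% of all genes. DESeq2 called 1 unblocked (against 1.88%) and 2 blocked (against 4.19%). Tyr, the tyrosinase gene, was at 919 ± 70.3 CPM in the HPC libraries, against 187 ± 109 CPM in the LPC libraries (edgeR adjusted p = 0.17, and 0.021 with the block). The other blocked edgeR call was Oca2, at 132 ± 22.9 CPM in HPC and 56.3 ± 39.7 in LPC (edgeR adjusted p = 0.48, and 0.047 with the block). Mlana, a melanosome gene, was at 1265 ± 291 CPM in the HPC libraries, against 1339 ± 51.7 CPM in the LPC libraries (edgeR adjusted p = 0.93). Of 12 immune markers, 11 were in the table, and the 2 that passed the filter on low counts, Cd68 and Lyz2, summed to 15.6, 8.16 and 11.5 CPM in HPC and 3.78, 5.81 and 8.77 CPM in LPC, which overlap, while the pan-leukocyte marker Ptprc and Cd3e, Itgam and Nkg7 were at 0 in all. Cd68 by itself was at 9.99 ± 2.96 CPM in HPC and 4.65 ± 2.26 in LPC. It passed with DESeq2 and the block (adjusted p = 0.017), as did 4.19% of all genes, but not with edgeR (adjusted p = 0.42, and 0.13 with the block). Of 13 markers of fibroblasts, endothelium and keratinocytes, 5 were at 0 in all libraries, namely Cdh5, Kdr, Krt5, Krt14 and Krt10, and the 4 that passed the filter summed to 38.0, 30.1 and 28.7 CPM in HPC and 35.5, 23.7 and 29.7 CPM in LPC, which overlap. Of these 4, 2 were positive and 2 negative. Pdgfra was called lower in HPC by the blocked edgeR fit, at 4.31 ± 1.24 CPM in HPC and 9.47 ± 4.03 in LPC (log2 fold change -1.11, adjusted p = 0.045, and 0.34 unblocked). Vwf went the other way, at 9.997 ± 0.508 CPM in HPC and 5.08 ± 3.32 in LPC (edgeR adjusted p = 0.61, and 0.19 with the block). Its groups did not overlap, as in 14.3% of all tested genes.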

How the data were processed

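RNA of sorted B16-F3 cells was made into QuantSeq 3′ mRNA-Seq FWD libraries, which read the 3′ ends of transcripts, and run on a NextSeq 500, per the labels' protocols. The authors deposited raw counts per gene for 22740 protein-coding genes. STAR and GRCm38 are named in the submitters' processing notes, while the sources used here do not name the counting program, its annotation release, its strand setting or any molecular identifiers. Columns were matched to samples by name.

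Genes were filtered with edgeR's filterByExpr (11921 left), scaled with TMM factors and tested with edgeR 4.0.16 (quasi-likelihood, group as only term, 4 residual degrees of freedom, R 4.3.3), with Benjamini-Hochberg adjustment over all tested genes and a threshold of 0.05. Fold changes are HPC over LPC. Log2 CPM used a prior count of 2. DESeq2 1.42.0, limma-voom (limma 3.58.1), other scalings and filters, left-out libraries and a replicate block were alternatives. The fits were tested on simulated data. The simulated counts held no difference between replicate numbers, so they could not test either fit on libraries that vary in pairs. Equally numbered libraries deviated together (correlations 0.425, 0.353 and 0.651 for numbers 1, 2 and 3, all above 0.1), so the numbers were taken as pairs from the data, not from the labels. Among differently numbered libraries, HPC replicate 2 and LPC replicate 1 also exceeded 0.1, at 0.204, and the rest ran from -0.588 to -0.048. Deviations were taken from each group's own mean, which pushes these other correlations down, so 0.1 is a weak limit. Since the replicates may come from 1 culture, p-values reflect the spread among the 6 libraries alone, and that spread may be technical.

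The members and lists were chosen with earlier results of these data known. Named genes are the 10 members, the list genes called with or without the block, the largest difference each way per list at a mean of at least 5 CPM, and the 5 genes most like and most opposite to Myc, of which 1 is not reported here. Any other gene was named after its values were seen.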

Additional observations from a re-analysis of the deposited data

How the results depend on the processing

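The log2 fold change of Myc kept its sign in all 18 alternatives, between -1.30 and -1.07, and passed in 12. It missed the threshold with RLE scaling (-1.17, adjusted p = 0.0505), in 4 of the 6 fits that left out 1 library (log2 fold change from -1.24 to -1.07 over the 6) and with the replicate block without the pair numbered 2 (-1.30, adjusted p = 0.11). The number of members called was 1, but 0 with RLE scaling and between 0 and 1 with 1 library left out. With the replicate block it was 1, and 0 to 3 with a pair also left out, the 3 being Myc, Mxd3 and Mxd4 without the pair numbered 1, with 1 residual degree of freedom. The number of genes called over the whole table was 5, and 28 with no filter, 224 with DESeq2, 301 with the replicate block and 500 with DESeq2 and the replicate block. It ran from 0 to 43 with 1 library left out, and was 0 in each such fit where Myc missed the threshold. With the block it was 2947, 0 and 196 without the pairs numbered 1, 2 and 3.

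Of 144 values of the other 8 members, 10 changed sign. Mxd4 turned positive without HPC replicate 2 or LPC replicate 3 (-0.30 to 0.38 over left-out libraries) and with the block without the pair numbered 2 (0.33) or 3 (0.10). Mnt did so without the same libraries (-0.084 to 0.12) and with the block without the pair numbered 2 (0.12). Mga turned negative without LPC replicate 2 (-0.055 to 0.21 over left-out libraries) and with the block without the pair numbered 2 (-0.099), and Mxd1 with the block without the pair numbered 1 (-0.015). The cause was not tested. The replicate block changed no call of a member (Myc -1.17, adjusted p = 0.0077). At 3 libraries a group, the depth limits only Mycn, where 1 read equals 0.0451 to 0.0675 CPM.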
